A study of Rattus norvegicus with 12 samples.

Results

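Transcripts of 10 genes of the fibroblast growth factor (FGF) system were followed in rat vascular smooth muscle cells given angiotensin II (Ang II), a vessel-constricting peptide hormone. The genes were 7 ligands (Fgf1, Fgf2, Fgf7, Fgf9, Fgf10, Fgf16 and Fgf18) and 3 receptors (Fgfr1, Fgfr2 and Fgfr3), taken by symbol from 14506 measured genes. The 10 were chosen by a list drawn up with results of these arrays known. The 6 h changes of Fgf16 and Fgf2 were among those known results, so every value of these 2 genes is given here as a description with no test. The other 8 genes were tested. The RNA came from cells of the aorta of Sprague-Dawley rats, labelled as differentiated, grown in 10% fetal bovine serum and kept without serum for 48 h. It was measured on Affymetrix Rat Gene 1.0 ST arrays in 4 groups of 3 arrays, namely untreated cells and cells given 100 nM Ang II for 6, 12 and 24 h. The sample titles give these times, whereas the treatment protocol in the labels names 1, 3 and 24 h. The groups share the same strain, vessel, culture and serum withdrawal, and no group was described as kept for the same time without Ang II, so Ang II and time in culture cannot be told apart. The titles number the arrays of a group as biological replicates, but nothing ties them to different animals or cultures, so a p-value here covers only array-to-array spread, which may be technical.

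FGFs are secreted proteins that bind receptor tyrosine kinases on the cell surface together with heparan sulfate, and the bound receptor signals through adaptor proteins to the RAS-MAPK cascade. Fgf1 and Fgf2 leave the cell without a classical signal peptide and are long known as growth factors for vascular smooth muscle, whereas Fgf7 and Fgf10 act mainly on epithelial forms of Fgfr2. Fgf9 and Fgf16 belong to one subfamily, and Fgf18 to another that also holds Fgf8 and Fgf17.

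The sequence upstream of the transcript start is shown for the ligands that were lowered and raised most at 6 h, Fgf16 and Fgf2, and for Fgfr2, the receptor with the largest change. Each is the 250 bases before the start in RefSeq's rat assembly GRCr8, written 5′ to 3′ along the gene. They lie at chrX:74882745-74882994 on the plus strand for Fgf16, at chr2:122164204-122164453 on the plus strand for Fgf2, and at chr1:194280915-194281164 on the minus strand for Fgfr2. Capitals mark matches to the motifs searched.
Fgf16: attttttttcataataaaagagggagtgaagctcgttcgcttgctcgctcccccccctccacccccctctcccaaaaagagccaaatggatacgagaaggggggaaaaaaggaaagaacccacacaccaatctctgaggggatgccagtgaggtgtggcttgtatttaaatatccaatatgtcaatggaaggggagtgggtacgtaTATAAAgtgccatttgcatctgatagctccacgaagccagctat
Fgf2: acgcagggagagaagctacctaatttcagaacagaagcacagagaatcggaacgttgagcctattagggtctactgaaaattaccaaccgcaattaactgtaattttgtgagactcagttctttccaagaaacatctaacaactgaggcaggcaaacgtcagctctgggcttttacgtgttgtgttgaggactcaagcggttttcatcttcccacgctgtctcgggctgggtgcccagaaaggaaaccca
Fgfr2: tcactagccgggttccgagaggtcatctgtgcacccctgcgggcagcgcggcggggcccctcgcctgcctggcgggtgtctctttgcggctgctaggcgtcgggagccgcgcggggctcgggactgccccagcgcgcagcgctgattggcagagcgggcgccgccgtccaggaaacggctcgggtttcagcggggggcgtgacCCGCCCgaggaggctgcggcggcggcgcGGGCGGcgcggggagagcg
Of 7 motifs searched on both strands, the Fgf16 window held a TATA box (TATAAA), at bases 44 to 39 before the start. Among all 33469 promoter windows of this length, 12.9% held that motif. The Fgfr2 window held 2 GC boxes (GGGCGG), at bases 47 to 42 and 19 to 14, a motif found in 30.5% of all windows. The Fgf2 window held no match to any of the 7, which besides these were the AP-1 site (TGANTCA, 6.34% of windows), the cAMP response element (TGACGTCA, 1.59%), the E-box (CACGTG, 5.59%), the ETS core (CCGGAA, 12.6%) and the CArG box (1.5%). The share of G and C was 47.2% for Fgf16, 46.8% for Fgf2 and 76.8% for Fgfr2, against a median of 51.2% over all windows. A gene model of Fgf16 also begins 132 bases further upstream, and a match is a description of letters, not of a bound site. Windows were found for 9 of the 10 genes.

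All values below are log2 array values as the authors deposited them, so a difference of 1 is a change of 2-fold, and a level is compared only within its own probe set. Each of the 10 genes has 1 probe set with a single gene symbol, and such values do not separate the splice forms of a gene. A change is an Ang II group minus untreated cells, given for tested genes with its standard error from the fit to all 12 arrays, and a gene was called when its limma p, adjusted over all 14506 genes of the comparison, was under 0.05. The array medians ran from 7.22 to 7.32, and correlations between arrays were 0.9975 to 0.9984 within groups and 0.9868 to 0.9941 between groups. As a description of the labelled cell type, group means were 9.31 to 14.46 for the 8 smooth muscle markers listed (Acta2 and Myh11 among them), 6.14 to 11.77 for 7 fibroblast, 5.02 to 7.39 for 7 endothelial and 5.22 to 8.34 for 7 leukocyte markers. The ranges of the smooth muscle and fibroblast lists overlap, and values of different probe sets do not rank their transcripts.

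Fgf16 (NCBI gene 60464), a ligand best known from the heart, was high in untreated cells and much lower at every time with Ang II. Its log2 values were 11.63, 11.80 and 11.66 on the untreated arrays, 9.14, 8.79 and 8.91 after 6 h, 10.19, 10.35 and 10.51 after 12 h, and 10.50, 10.36 and 10.38 after 24 h. Every Ang II array lay below every untreated array, and the 6 h arrays lay below all others. The level averaged 8.95 ± 0.18 at 6 h, against 11.70 ± 0.09 in untreated cells (SD, n = 3 each), a difference of −2.75 or 6.72-fold lower. At 12 h it averaged 10.35 ± 0.16 (2.54-fold lower than untreated) and at 24 h 10.41 ± 0.07 (2.43-fold lower). The 12 h mean was 1.40 above that at 6 h, and the arrays of these times did not overlap. Between 24 h and 12 h the difference was 0.06, and the arrays overlapped. In bulk RNA of this kind, fewer cells of a type and less RNA per cell cannot be told apart.

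Fgf2 (NCBI gene 54250), also called basic FGF, was higher at every time with Ang II, and most at 6 h. Its log2 values were 8.98, 9.14 and 9.00 on the untreated arrays, 10.62, 10.47 and 10.65 after 6 h, 9.72, 9.73 and 9.86 after 12 h, and 9.86, 9.84 and 9.88 after 24 h. Every Ang II array lay above every untreated array, and the 6 h arrays were the highest. The level averaged 10.58 ± 0.10 at 6 h, against 9.04 ± 0.09 in untreated cells (SD, n = 3 each), a difference of 1.54 or 2.92-fold higher. It averaged 9.77 ± 0.08 at 12 h (1.66-fold higher than untreated) and 9.86 ± 0.02 at 24 h (1.77-fold). The level at 12 h was 0.81 below that at 6 h (a difference of −0.81), while 24 h and 12 h differed by 0.09 and overlapped.

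**Figure D1:**
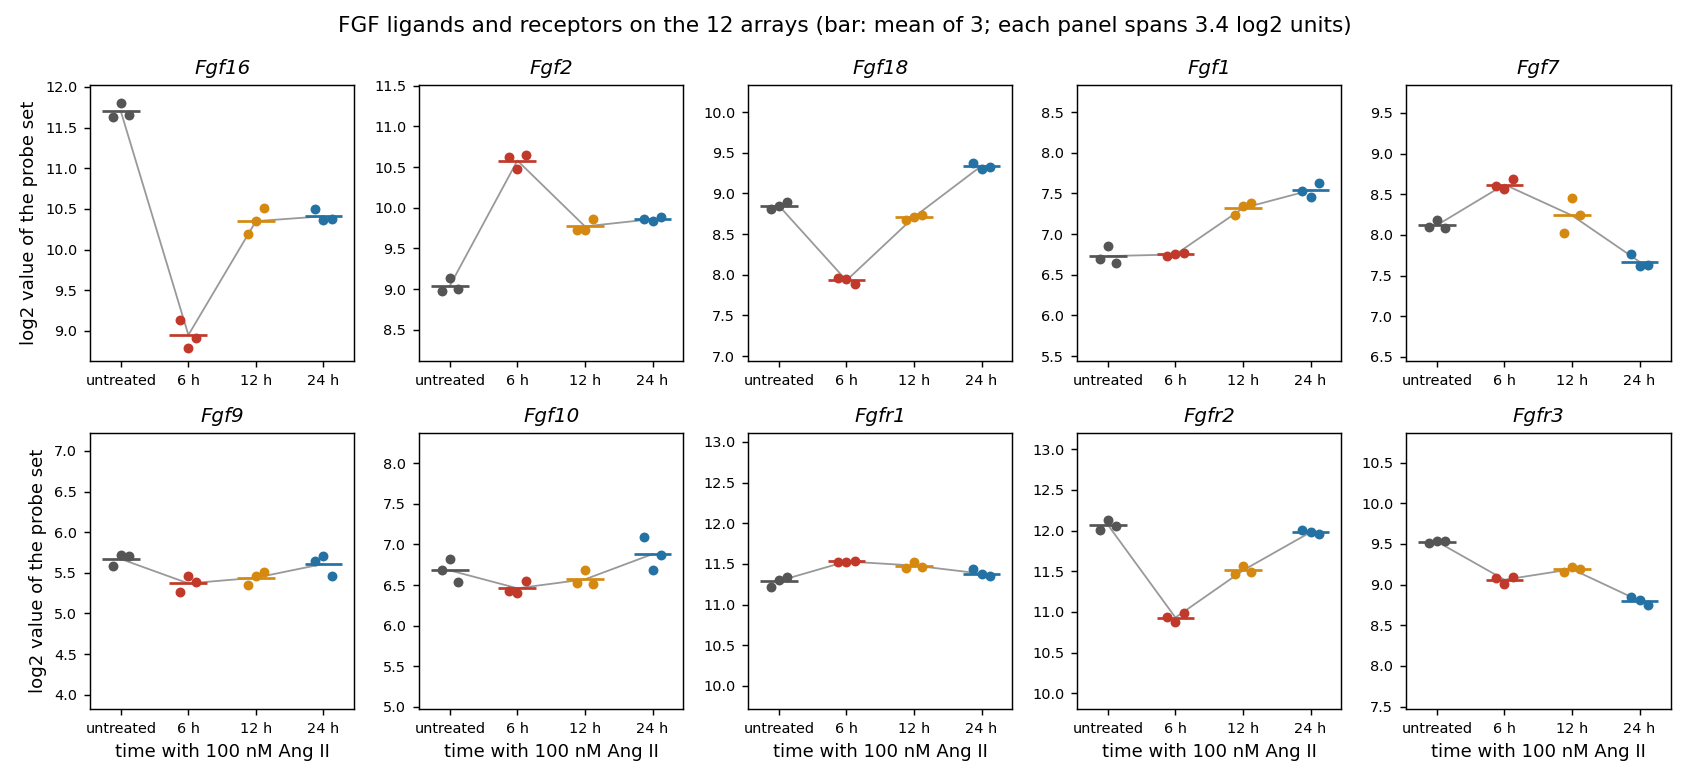
Log2 value of each FGF ligand and receptor gene on the 12 arrays, in untreated cells and after 6, 12 and 24 h of 100 nM Ang II; points are arrays and bars are means of 3. The 6 h points of Fgf16, at 8.79 to 9.14, lie below all its other points, and those of Fgf2, at 10.47 to 10.65, above all its others.

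Among the 8 tested genes, 2 rose and 4 fell at 6 h, when 18.6% of all genes rose and 17.2% fell. At 12 h, 2 rose and 4 fell, against 13.3% of all genes in each direction. At 24 h, 2 rose and 2 fell, against 15.3% and 14.7% of all genes. With each array centred on its median, 4 of the 8 rose at 24 h (Fgf1, Fgf18, Fgf10 and Fgfr1), and the share of rises among all called genes at that time was 67.5%, in place of 51%. At 1 or more times 7 of the 8 were called (87.5%), against 51.6% of all genes, and the exception was Fgf10, which passed at 24 h with that centring (0.25, adjusted p = 0.0441). Because the list was drawn up with results of these arrays known, a higher share among its genes is no test of the family. The median change of all 10 genes was −0.26 at 6 h, −0.13 at 12 h and 0.01 at 24 h, against 0.01, 0.01 and 0.05 over all genes. These 3 comparisons share the untreated arrays.

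**Figure D2:**
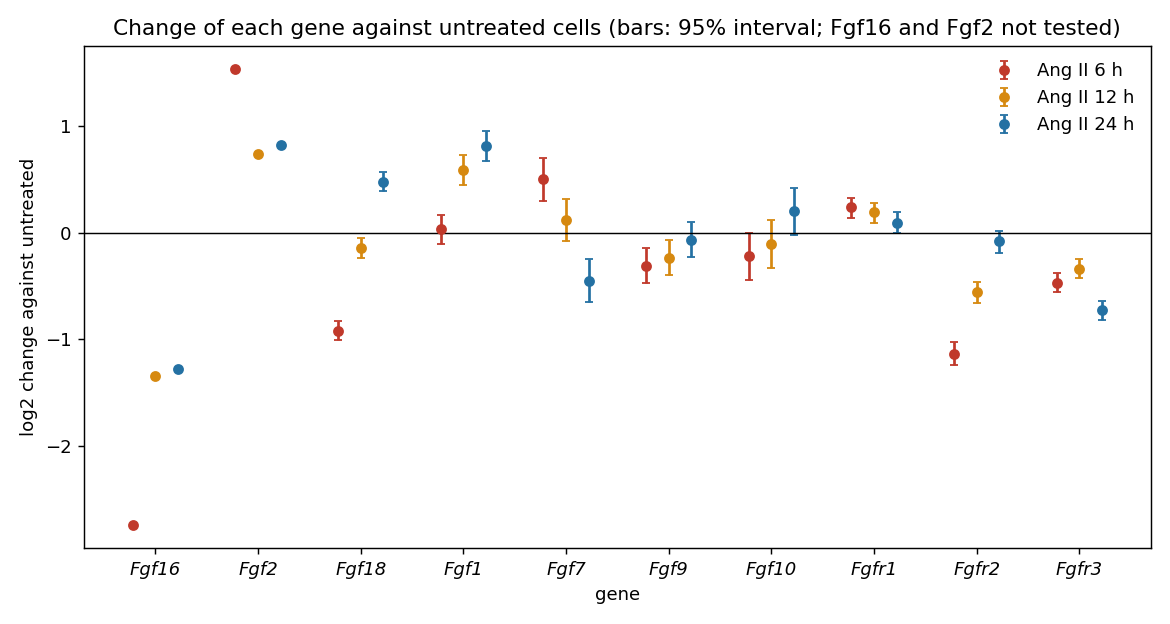
Change of each gene at 6, 12 and 24 h of Ang II against untreated cells, in log2 units, with bars for the 95% interval from the fit to 12 arrays (3 a group) in the 8 tested genes; Fgf16 and Fgf2, which were not tested, have none. Fgf18 is at −0.92 at 6 h and 0.48 at 24 h, and Fgf7 at 0.50 and −0.45.

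Of the other ligands, Fgf18 (NCBI gene 29369), known for its part in skeletal and lung growth, changed direction over the day. Its log2 values were 8.81, 8.85 and 8.90 on the untreated arrays, 7.96, 7.95 and 7.89 after 6 h, 8.68, 8.71 and 8.74 after 12 h, and 9.38, 9.30 and 9.33 after 24 h. No 2 groups overlapped, and the 6 h arrays were the lowest and the 24 h arrays the highest. It fell by 0.92 ± 0.04 at 6 h (1.89-fold lower, adjusted p = 1.2e-08) and was 0.48 ± 0.04 higher at 24 h (1.4-fold, adjusted p = 5.01e-06). Its small difference at 12 h, −0.14 ± 0.04, passed with an adjusted p of 0.0254, and that call was lost without untreated replicate 2 or 3 or without 12 h replicate 1 or 2 (adjusted p of 0.0642, 0.105, 0.0807 and 0.0665). Fitted on the 2 groups alone, the 12 h call was lost as well (0.0554). Fgf18 at 24 h exceeded its 6 h level by 1.40 (adjusted p = 7.65e-10), or 2.65-fold.

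Fgf7 (NCBI gene 29348), keratinocyte growth factor, was called in the opposite directions at the same times. The log2 values were 8.10, 8.18 and 8.08 on the untreated arrays, 8.60, 8.57 and 8.69 after 6 h, 8.02, 8.45 and 8.24 after 12 h, and 7.76, 7.62 and 7.63 after 24 h. The 6 h arrays lay above and the 24 h arrays below all untreated arrays, and the 12 h arrays overlapped them. It rose by 0.50 ± 0.09 at 6 h (1.41-fold, adjusted p = 0.000823) and fell by 0.45 ± 0.09 at 24 h (1.37-fold lower, adjusted p = 0.00257). At 12 h the change was 0.12 (95% interval −0.08 to 0.32, adjusted p = 0.403). Without 12 h replicate 1, the lowest array of its group, that change was 0.23 with an adjusted p of 0.0495.

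Fgf1 (NCBI gene 25317), acidic FGF, rose late. Its log2 values were 6.70, 6.85 and 6.64 on the untreated arrays, 6.73, 6.75 and 6.77 after 6 h, 7.23, 7.35 and 7.38 after 12 h, and 7.53, 7.46 and 7.63 after 24 h. The 6 h arrays lay within the range of the untreated arrays, and all 12 h and 24 h arrays lay above both. Its untreated and 6 h readings lie below the array medians of 7.22 to 7.32. The change was 0.03 at 6 h (95% interval −0.11 to 0.17, adjusted p = 0.811), 0.59 ± 0.06 at 12 h (1.51-fold, adjusted p = 3.07e-05) and 0.81 ± 0.06 at 24 h (1.76-fold, adjusted p = 2.27e-06). Fgf1 at 24 h exceeded its 12 h level by 0.22 ± 0.06 (adjusted p = 0.0253).

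For each ligand's largest change over the 3 times, the smallest sizes were those of Fgf9 (−0.31 at 6 h) and Fgf10 (−0.22 at 6 h). Fgf9 (NCBI gene 25444), of the subfamily of Fgf16, read 5.59, 5.72 and 5.71 in untreated cells, 5.26, 5.46 and 5.39 after 6 h, 5.35, 5.46 and 5.51 after 12 h, and 5.65, 5.71 and 5.46 after 24 h. All of these lie well below the array medians of 7.22 to 7.32, so the changes of Fgf9 are changes of a low reading. The 6 h and 12 h arrays lay below the untreated arrays, and those of 24 h overlapped them. It fell by 0.31 ± 0.07 at 6 h (adjusted p = 0.00633) and by 0.24 ± 0.07 at 12 h (adjusted p = 0.0358), and the change at 24 h was −0.07 (adjusted p = 0.523). The 12 h call was lost without untreated replicate 2 or 3 or 12 h replicate 1 or 2, with adjusted p-values of 0.114, 0.108, 0.127 and 0.0705. That call was also lost with median centring (0.0521), with eBayes's trend and robust options (0.0813) and with unmoderated variances (0.0652). Fgf10 (NCBI gene 25443), a ligand of organ budding, read 6.54 to 6.82 in untreated cells, 6.40 to 6.55 after 6 h, 6.51 to 6.69 after 12 h and 6.68 to 7.09 after 24 h, and each Ang II group overlapped the untreated arrays. The readings of Fgf10 also lie below the array medians. Its changes were −0.22 at 6 h (adjusted p = 0.126), −0.11 at 12 h (0.515) and 0.20 at 24 h (95% interval −0.02 to 0.42, adjusted p = 0.166). Without 24 h replicate 2 the last of these was 0.30 with an adjusted p of 0.0448. Fgf10 at 24 h exceeded its 6 h level by 0.42, with no overlap (adjusted p = 0.00621).

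The 3 receptors took 3 different courses. Fgfr2 (NCBI gene 25022) read 12.01, 12.13 and 12.06 in untreated cells, 10.94, 10.87 and 10.98 after 6 h, 11.46, 11.56 and 11.49 after 12 h, and 12.01, 11.98 and 11.96 after 24 h. The groups at 6 h and 12 h stood apart from each other and from all the rest, and the 24 h arrays overlapped the untreated ones. It fell by 1.14 ± 0.05 at 6 h (2.2-fold lower, adjusted p = 6.06e-09) and by 0.56 ± 0.05 at 12 h (1.47-fold lower, adjusted p = 3.67e-06). At 24 h the change was −0.08 (95% interval −0.19 to 0.02, adjusted p = 0.226), and 24 h exceeded 6 h by 1.06 (adjusted p = 1.36e-08). A further quantile normalization made the 24 h value −0.14 with an adjusted p of 0.0216.

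Fgfr3 (NCBI gene 84489), a receptor known for restraining bone growth, was lower at all 3 times. It read 9.51, 9.54 and 9.54 in untreated cells, 9.08, 9.01 and 9.09 after 6 h, 9.15, 9.22 and 9.19 after 12 h, and 8.85, 8.81 and 8.75 after 24 h. Every Ang II array lay below every untreated array, and the 24 h arrays were the lowest. The falls were by 0.47 ± 0.04 at 6 h (1.38-fold lower, adjusted p = 2.79e-06), by 0.34 ± 0.04 at 12 h (1.27-fold, adjusted p = 6.76e-05) and by 0.73 ± 0.04 at 24 h (1.65-fold, adjusted p = 1.67e-07).

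Fgfr1 (NCBI gene 79114), the receptor most often linked to mesenchymal cells, rose slightly. It read 11.22, 11.30 and 11.34 in untreated cells, 11.52, 11.52 and 11.54 after 6 h, 11.45, 11.52 and 11.46 after 12 h, and 11.44, 11.37 and 11.35 after 24 h. All Ang II arrays lay above all untreated arrays, by little at 24 h. The change was 0.24 ± 0.04 at 6 h (1.18-fold, adjusted p = 0.00109), 0.19 ± 0.04 at 12 h (1.14-fold, adjusted p = 0.00785) and 0.09 ± 0.04 at 24 h (adjusted p = 0.137). With arrays centred on their medians the 24 h change was 0.15 (adjusted p = 0.00918).

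Set against one another, the Ang II times also differed for most of these genes. Between 12 h and 6 h, 4 of the 8 tested genes rose (Fgf1, Fgf18, Fgfr2 and Fgfr3) and 1 fell (Fgf7), where 13.1% of all genes rose and 13.9% fell. The rise of Fgfr3, 0.13 (adjusted p = 0.0404), was lost without any 6 h array or without 12 h replicate 2 or 3 (adjusted p of 0.0614 to 0.138). That rise was also lost on the 2 groups alone (0.0927), with the replicate number as a block (0.0714) and with eBayes's trend and robust options (0.0576). Between 24 h and 12 h, 4 rose (Fgf1, Fgf10, Fgf18 and Fgfr2) and 2 fell (Fgf7 and Fgfr3), against 14% and 13.5% of all genes. With arrays centred on their medians the share of rises among all genes called between these times was 63.2%, in place of 50.9%. Fitted on these 2 groups alone, the calls of Fgf1 and Fgf10 were lost (adjusted p of 0.055 and 0.0851), and both were also lost without 12 h replicate 1 (0.0852 and 0.104). Fgf1 was lost as well without 24 h replicate 3 (0.0926), and Fgf10 without 12 h replicate 3 or 24 h replicate 1 or 3 (0.126, 0.147 and 0.0837). The Fgf10 call was lost too with the replicate block (0.0636), quantile normalization (0.144) and unmoderated variances (0.0885). Between 24 h and 6 h, 5 rose (Fgf1, Fgf9, Fgf10, Fgf18 and Fgfr2) and 3 fell (Fgf7, Fgfr1 and Fgfr3), against 19.4% and 19.8% of all genes. The call of Fgf9 was lost without 6 h replicate 1 or 24 h replicate 1 or 2 (adjusted p of 0.101, 0.0716 and 0.0953), and that of Fgfr1 without 6 h replicate 1 or 3 or 24 h replicate 2 or 3 (0.0502, 0.0713, 0.0646 and 0.0784). Both were lost on the 2 groups alone (0.0561 and 0.0527) and with quantile normalization (0.123 and 0.0619). Fgf9 was also lost with the trend and robust options (0.0578).

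Markers of another cell type moved beside these changes. Of 7 fibroblast markers listed, 5 fell at 6 h and at 12 h and 4 at 24 h, Pdgfra by 1.39 and Lum by 0.46 at 6 h among them. The mean log2 level of the 7 per array was 8.67 to 8.73 in untreated cells, 8.22 to 8.26 at 6 h, 8.17 to 8.26 at 12 h and 8.18 to 8.21 at 24 h. The mean of the 8 smooth muscle markers was 12.17 to 12.21 in untreated cells, 12.27 to 12.31 at 6 h, 12.37 to 12.41 at 12 h and 12.59 to 12.61 at 24 h. Of these 8, 4 rose and 2 fell at 6 h, 5 and 1 at 12 h, and 7 and 0 at 24 h. Myh11 changed by −0.24, −0.17 and 0.44 at these times, and Lmod1 by −0.19, 0.29 and 0.59. Of all genes, 18.6% rose and 17.2% fell at 6 h, 13.3% each at 12 h, and 15.3% and 14.7% at 24 h. The part of these shifts in the changes of the FGF genes was not tested.

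The Fgf2 locus carries a partner gene on the opposite strand, Nudt6, whose transcript is antisense to that of Fgf2. In GRCr8 both lie on chromosome 2, and their annotated spans overlap by 766 bases. Nudt6 read 8.06, 8.17 and 8.13 in untreated cells, 7.34, 7.36 and 7.45 after 6 h, 7.64, 7.92 and 7.91 after 12 h, and 8.35, 8.02 and 8.15 after 24 h. The 6 h arrays lay below all others, the 12 h arrays below the untreated ones, and the 24 h arrays overlapped the untreated ones. Nudt6 fell by 0.74 ± 0.09 at 6 h (adjusted p = 3.87e-05) and by 0.30 ± 0.09 at 12 h (adjusted p = 0.0288), and its change at 24 h was 0.06 (adjusted p = 0.667). Over the same times the changes of Fgf2 were 1.54, 0.74 and 0.82. The 12 h call of Nudt6 was lost without untreated replicate 2 or 3 or 12 h replicate 1 (adjusted p of 0.0956, 0.0747 and 0.109). With unmoderated variances that call was lost as well (0.0627). The strand that each probe reads was not checked here.

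**Figure D3:**
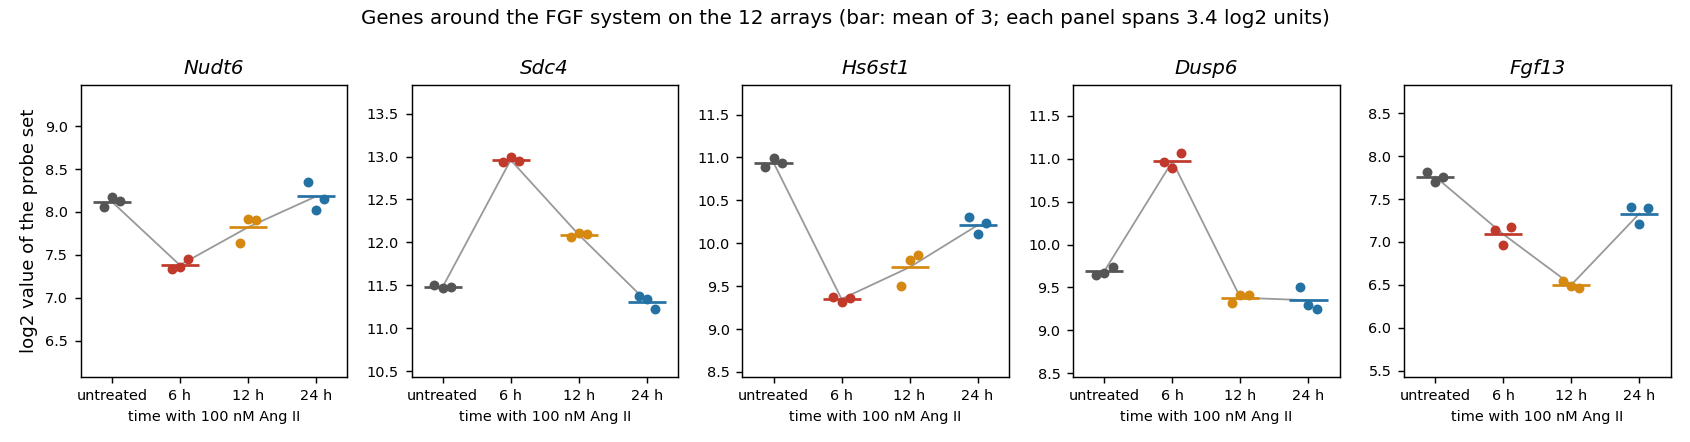
Log2 values on the 12 arrays of Nudt6, Sdc4, Hs6st1, Dusp6 and Fgf13, in untreated cells and after 6, 12 and 24 h of 100 nM Ang II; points are arrays, bars are means of 3, and all panels span the same range. At 6 h Sdc4 and Dusp6 stand above all their other points and Nudt6 and Hs6st1 below all theirs, while Fgf13 is lowest at 12 h.

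Of 22 other FGF family genes listed, 19 were measured under the listed symbol, all but Fgf15, Klb and Fgfbp2, and 6 were called at 1 or more times (31.6%, against 51.6% of all genes). Most of the 19 had untreated means below the array medians of 7.22 to 7.32, such as Fgf14 (5.23), Fgf23 (5.69) and Fgf5 (5.78). Others lay above them, Fgf4 (8.22) and Fgfrl1 (10.10) among them. At a low reading, a missing call does not show that a transcript was present and steady. Of the genes called, 3 had all group means below the array medians. They were Fgf21 (6.66 to 7.18), Kl (6.48 to 7.08) and Fgfbp3 (6.81 to 7.0), so their changes are changes of a low reading. Among 10 further ligands Fgf21, a metabolic hormone of this family, was the one called, with changes of 0.05 at 6 h, 0.10 at 12 h and 0.52 ± 0.05 at 24 h (adjusted p = 5.23e-06). Fgf13, one of 4 homologous factors that stay inside the cell and bind sodium channels, fell by 0.67 at 6 h (adjusted p = 8.97e-06), by 1.26 at 12 h (8.02e-08) and by 0.42 at 24 h (0.000522). Its relative Fgf12 fell by 0.44 at 12 h (adjusted p = 0.0123). Kl, the klotho co-receptor, rose by 0.61 at 6 h (adjusted p = 0.000252) and 0.39 at 12 h (0.00855). At 24 h small rises were called for Fgfrl1, a receptor without a kinase domain (0.18, adjusted p = 0.0122), and Fgfbp3, a carrier that binds FGFs (0.19, adjusted p = 0.0198). The call of Fgfrl1 was lost without untreated replicate 1 (adjusted p = 0.0523), and that of Fgfbp3 without untreated replicate 1 or 24 h replicate 2 or 3 (0.0813, 0.067 and 0.0648). Fgfbp3 was also lost with quantile normalization (0.0787) and with the trend and robust options (0.0624). Fgfr4, the remaining receptor, was not called, with changes of −0.09, −0.04 and 0.12 at 6, 12 and 24 h. A gene annotated as Fgf19, a symbol not listed, was looked up after values were seen and was not called either (0.08, 0.03 and 0.04). It may be the gene listed here as Fgf15.

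**Figure D4:**
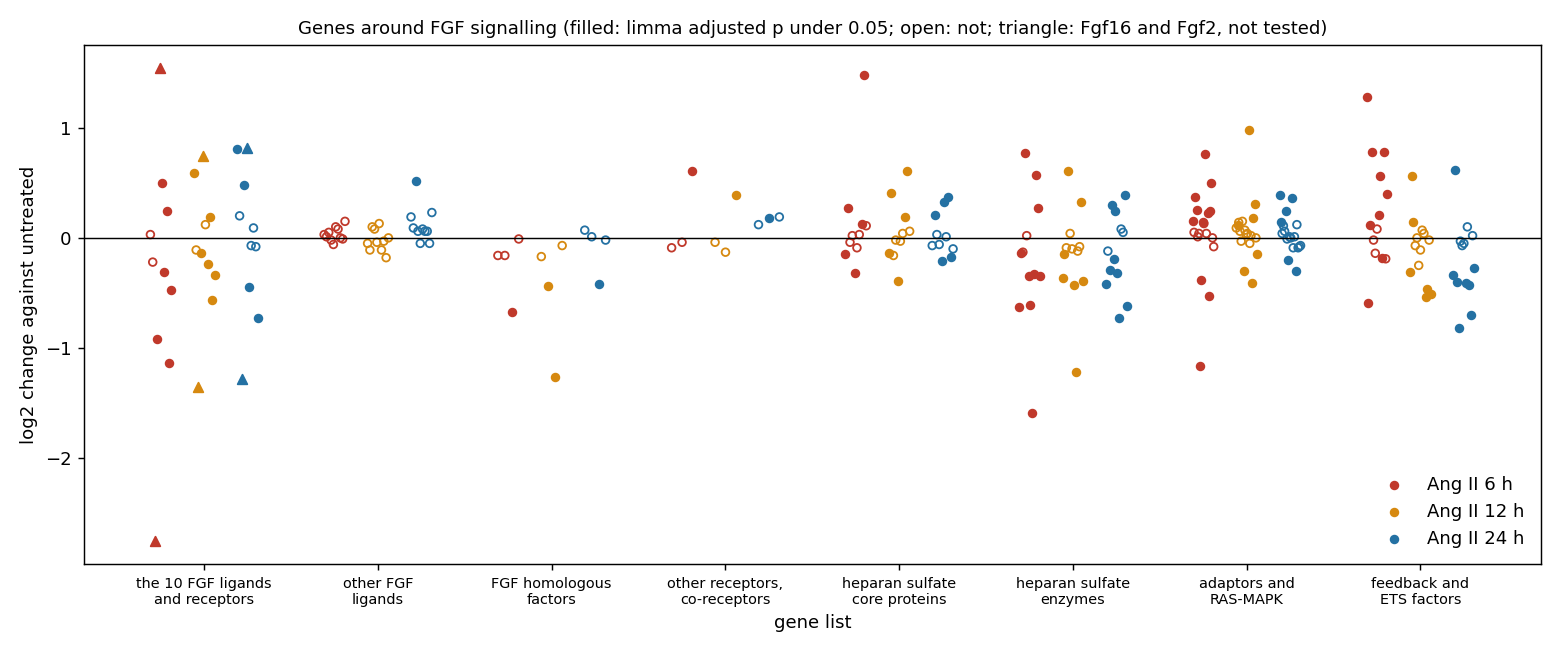
Change at 6, 12 and 24 h of Ang II against untreated cells, in log2 units, for the genes of each list around FGF signalling; filled points passed limma's adjusted threshold, open points did not, and triangles are Fgf16 and Fgf2, which were not tested. Among the other FGF ligands 1 point is filled, Fgf21 at 24 h (0.52), whereas all 12 heparan sulfate enzymes have at least 1 filled point.

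Heparan sulfate, which holds FGF and receptor together, is carried on core proteins, of which 3 of 10 measured rose and 2 fell at each time. Over all genes 18.6% rose and 17.2% fell at 6 h, 13.3% each at 12 h, and 15.3% and 14.7% at 24 h, so the falls in this list were near the share of all genes. The list's median changes were 0.03, 0.01 and −0.03 at 6, 12 and 24 h. Sdc4, syndecan-4, a cell-surface carrier, read 11.47 to 11.50 in untreated cells, 12.94 to 12.99 after 6 h, 12.06 to 12.11 after 12 h and 11.22 to 11.38 after 24 h. It rose by 1.48 at 6 h (adjusted p = 7.19e-10) and by 0.61 at 12 h (1.45e-06), and was 0.17 lower at 24 h (0.0165, a call lost without untreated replicate 1 or 24 h replicate 3, at 0.0544 and 0.0633). The 24 h call was also lost on the 2 groups alone (0.0567) and with median centring (0.077). Gpc4, a glypican, fell at each time (−0.32, −0.39 and −0.21), whereas its relative Gpc1 rose at each (0.27, 0.41 and 0.21). Sdc3 rose by 0.13, 0.19 and 0.37 at 6, 12 and 24 h, the first of which was lost without untreated replicate 1 or 6 h replicate 2 (adjusted p of 0.0554 and 0.0541), and Sdc1 rose by 0.33 at 24 h.

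All 12 measured enzymes that build or edit heparan sulfate were called at 1 or more times, against 51.6% of all genes, with 3 rises and 7 falls at 6 h, 2 and 5 at 12 h, and 3 and 6 at 24 h. Of all genes 18.6% rose and 17.2% fell at 6 h, 13.3% each at 12 h, and 15.3% and 14.7% at 24 h. Those shares take in genes of low level. The enzymes had group means of 7.73 to 12.66, above the array medians of 7.22 to 7.32. Among genes above the median level only, 2569 rose and 2161 fell at 6 h, against 2703 and 2488 of all genes. Calls were thus more frequent at higher levels, and the part of level in this list's counts was not tested. The enzymes' median changes were −0.23, −0.11 and −0.15. Hs6st1, a sulfotransferase of the chain, had the largest change, with log2 values of 10.89 to 10.99 in untreated cells, 9.31 to 9.37 after 6 h, 9.50 to 9.86 after 12 h and 10.11 to 10.30 after 24 h. It fell by 1.59 at 6 h (3.02-fold lower, adjusted p = 3.42e-08), by 1.22 at 12 h (5.91e-07) and by 0.73 at 24 h (4.14e-05). The chain polymerase Ext1 (−0.63, −0.36 and −0.42), the sulfotransferase Hs3st1 (−0.61, −0.43 and −0.32) and the sulfatase Sulf2 (−0.35, −0.39 and −0.62) also fell at each time. Sulf1, the other sulfatase measured, was called higher at each time (0.27, 0.33 and 0.39). Extl3, which starts the chain, rose at each (0.77, 0.61 and 0.30).

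Among 18 measured adaptors and kinases between receptor and MAPK, 8 rose and 3 fell at 6 h, 4 and 3 at 12 h, and 4 and 2 at 24 h, with median changes of 0.09, 0.05 and 0.01. The shares of all genes were 18.6% and 17.2% at 6 h, 13.3% each at 12 h, and 15.3% and 14.7% at 24 h, and the counts at 12 h and 24 h lie near them. Gab1, a docking protein, fell by 1.16 at 6 h (adjusted p = 6.45e-09) and by 0.30 at 12 h (0.000657), and its change at 24 h was −0.01 (0.895). Map2k1, which encodes the kinase MEK1, rose at each time (0.76, 0.98 and 0.36), and Plcg1, a phospholipase that receptors recruit, fell at each (−0.53, −0.41 and −0.30). The adaptor Shc1 rose by 0.50 at 6 h and 0.31 at 12 h, and the kinase Araf by 0.15 at 6 h and 0.39 at 24 h.

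The last list held feedback inhibitors and ETS factors, which receptor signalling through MAPK is known to induce. It also held Flrt2 and Flrt3, which are of neither kind and were not called at any time. Of 13 measured, 7 rose and 2 fell at 6 h, 2 rose and 4 fell at 12 h, and 1 rose and 7 fell at 24 h, with median changes of 0.12, −0.07 and −0.27. Beside shares of all genes of 18.6% and 17.2% at 6 h, 13.3% each at 12 h, and 15.3% and 14.7% at 24 h, the falls at 6 h and the rises at 12 h were near background. Dusp6, a phosphatase that switches off ERK, read 9.65 to 9.74 in untreated cells, 10.89 to 11.07 after 6 h, 9.32 to 9.41 after 12 h and 9.25 to 9.50 after 24 h. It rose by 1.28 at 6 h (adjusted p = 4.43e-08) and fell by 0.31 at 12 h (0.00575) and by 0.34 at 24 h (0.00322). Etv5 rose by 0.78 at 6 h and fell by 0.82 at 24 h, and the inhibitor Spry2 rose by 0.78 at 6 h and fell by 0.46 at 12 h and 0.70 at 24 h. Etv1 ran the other way (−0.59, 0.56 and 0.62). Spry4 was called at 0.40, −0.51 and −0.27, and Spry1 fell at each time (−0.18, −0.54 and −0.43). At 6 h the Spry1 call was lost without untreated replicate 1 or 2 or any 6 h array, with adjusted p-values of 0.0598 to 0.0996.

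Likeness of course was measured as the root mean square difference of the 3 changes against untreated cells, over all other genes, as a description. The nearest genes lie below the median difference by the way they were picked. The medians below give a scale only and are no test of likeness. The 5 genes nearest to Fgf16 were Agtr1a, Lpar4, Pde1a, Vcam1 and Plcl1, at 0.31, 0.43, 0.44, 0.53 and 0.55 log2 units, against a median of 1.94 over other genes. Agtr1a encodes an Ang II receptor, and its changes were −2.57, −1.85 and −1.20 at 6, 12 and 24 h, beside −2.75, −1.35 and −1.28 for Fgf16. The 5 nearest to Fgf2 were Mmd, Gpr4, Itga5, Actr3b and Trpc4, at 0.12, 0.20, 0.21, 0.21 and 0.23, against a median of 1.08. The changes of Mmd were 1.35, 0.79 and 0.80, beside 1.54, 0.74 and 0.82 for Fgf2.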

How the data were processed

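The deposited values are on the log2 scale, with a single value for a probe set on an array. RMA and Partek are the tools named in the submitters' processing notes. Their versions, the background correction and the summary level are not given in the labels, and no scanner file was used. Per the labels' protocols, labelling started from 100 ng of total RNA extracted with Trizol. The value table holds 29214 probe sets and 12 arrays, grouped by their titles, and no array was left out. Arrays have no read depth, so their number limits the precision.

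The platform annotation gave 1 symbol to 15310 probe sets, several to 323, which were not named, and left 13581 unnamed here. Where several probe sets named a gene (527 genes), the one with the highest mean over the 12 arrays stood for it, giving 14506 genes. Symbols were updated through RefSeq's GRCr8 table by gene identifier for 14481 genes and by accession for 5, and 20 kept the annotation's symbol. Promoter windows are RefSeq's for GRCr8.

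A mean for each of the 4 groups was fitted with limma 3.58.1 in R 4.3.3 and eBayes (8 residual and 3.37 prior degrees of freedom), and p-values (both tails) were adjusted by Benjamini-Hochberg over all genes within each of 6 comparisons, at 0.05. The members and all gene and marker lists were chosen with earlier results of these data known. Named by rule were the 10 members, other FGF family genes called against untreated cells, Nudt6, the 3 largest called changes of each pathway list at each time, and the 5 genes nearest in course to Fgf16 and to Fgf2. Further genes, such as Sulf1, were named to show limits of these results. The fit was tested on simulated data for 24 h against untreated cells among 14506 genes, with 50 genes at each size, and recovered 40% of changes of 0.25, 86% of 0.5 and 100% of 1 and 2 (log2), with 10 false calls. Alternatives were the 2 groups alone, the replicate number as a block, each array left out, genes above the median level only, probe sets averaged within a gene, quantile normalization, centring on array medians, eBayes with trend and robust options, and unmoderated variances. Tables and figures used Python 3.11.15, pandas 2.3.3 and matplotlib 3.10.9.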

Additional observations from a re-analysis of the deposited data

Results flagged for a closer look

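Groups of 3 arrays are too small for a test of single arrays far from the rest. The results that stood out were tested members whose changes against untreated cells differed between 2 Ang II times, by the test of that difference (limma adjusted p under 0.05, with p-values in the report or given here).

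Between 12 h and 6 h the difference was 0.56 for Fgf1 (adjusted p = 5.61e-05), −0.38 for Fgf7 (0.00748), 0.78 for Fgf18 (2.04e-07), 0.58 for Fgfr2 (4.7e-06) and 0.13 for Fgfr3 (0.0404). Of all genes, 13.1% rose and 13.9% fell between these times. These 5 genes were picked by that same test. That their 12 h and 6 h arrays did not overlap therefore adds no further support.

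Between 24 h and 12 h it was 0.22 for Fgf1 (adjusted p = 0.0253), −0.57 for Fgf7 (0.000646), 0.31 for Fgf10 (0.0436), 0.63 for Fgf18 (1.09e-06), 0.48 for Fgfr2 (2.16e-05) and −0.39 for Fgfr3 (3.74e-05). For Fgf10 the arrays of 24 h and 12 h overlapped. Over all genes 14% rose and 13.5% fell between these times.

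Between 24 h and 6 h it was 0.79 for Fgf1 (adjusted p = 1.79e-06), −0.95 for Fgf7 (5.45e-06), 0.24 for Fgf9 (0.0237), 0.42 for Fgf10 (0.00621), 1.40 for Fgf18 (7.65e-10), −0.14 for Fgfr1 (0.023), 1.06 for Fgfr2 (1.36e-08) and −0.26 for Fgfr3 (0.000345). The largest of these was Fgf18, which lay below untreated cells at 6 h and above them at 24 h. Over all genes 19.4% rose and 19.8% fell between 24 h and 6 h.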

How the results depend on the processing

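Of the 16 calls of tested members against untreated cells, 14 held in every alternative that gave a value, and the exceptions were Fgf18 and Fgf9 at 12 h. Fgf16 changed by −2.84 to −2.67 at 6 h, −1.43 to −1.27 at 12 h and −1.32 to −1.23 at 24 h over the alternatives, and Fgf2 by 1.51 to 1.60, 0.69 to 0.79 and 0.79 to 0.88. With genes above the median level only, 5 of the 8 tested members remained in the test, all but Fgf1, Fgf9 and Fgf10. The count of rises was then 1 at 12 h and 1 at 24 h against untreated cells, 2 for 24 h against 12 h and 2 for 24 h against 6 h, because fewer genes were tested. Fitted on 2 groups alone, 2 rose for 24 h against 12 h, and with median centring 4 rose at 24 h against untreated cells, where calls over all genes were 3559 higher and 1713 lower, in place of 2222 and 2136. With an array left out, the count of falls at 12 h against untreated cells was 2 to 4 (2 without untreated replicate 2 or 3 or 12 h replicate 1 or 2), and that of rises for 24 h against 12 h was 2 to 4 (2 without 12 h replicate 1). Changes near 0 turned in sign when an array was left out: Fgf1 at 6 h (−0.02 to 0.09), Fgf9 at 24 h (−0.12 to 0.00), Fgf12 at 24 h (−0.02 to 0.07), Nudt6 at 24 h (−0.03 to 0.13), Gab1 at 24 h (−0.06 to 0.02) and Fgf16 for 24 h against 12 h (−0.01 to 0.15). Fgf12 at 24 h was also −0.01 after quantile normalization, and Gab1 at 24 h was 0.05 with median centring. The cause of these shifts was not tested.

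Deviations of the arrays from their group means correlated at −0.103 to 0.299 for the same replicate number (18 pairs) and at −0.28 to 0.257 for different numbers (36 pairs). These ranges overlap, which does not settle whether replicate numbers pair the arrays. With the replicate block, rises and falls among tested members were 2 and 4 at 6 h, 2 and 4 at 12 h, 2 and 2 at 24 h, 3 and 1 for 12 h against 6 h, 3 and 2 for 24 h against 12 h, and 5 and 3 for 24 h against 6 h.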
